A study of Ciona robusta with 6 samples.

Results

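Levels of the transcription factor gene *Neurog* and of 4 further neural transcription factor genes were examined in sorted cells of the tunicate *Ciona robusta*. These are *Onecut* (KH2013:KH.C6.185), *Bhlh-tun2* (KH2013:KH.C4.649), *Insm* (KH2013:KH.C4.378) and KH2013:KH.C1.274, which the study's tables match to human *MYT1L* and which is called the *MYT1L* match here. *Neurog* itself is KH2013:KH.C6.129, and the prefix is left out from here on. The genes were taken by identifier, 5 of the 15232 gene models of the count table, and all 5 were among the 12253 that passed the filter on low counts (over 1 CPM, counts scaled to the size of the library, in at least 2 libraries). They were chosen with earlier results of these data known. How many of them passed a threshold therefore describes these genes and is no independent result.

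RNA was sequenced from cells that carried a fluorescent *Neurog[BTN]* reporter (tagRFP or tagBFP), sorted without counterselection from embryos at 9.5 hours post-fertilization (hpf) and 20°C. All 3 conditions carried this reporter plasmid together with a second plasmid under a *Neurog* driver. That plasmid encoded lacZ, an inert bacterial enzyme, in the control (*Neurog* > *lacZ*), Neurog in the overexpression condition (*Neurog* > *Neurog*), and Neurog joined to the WRPW repressor motif in the repressor condition (*Neurog* > *Neurog:WRPW*). Each condition had 2 libraries, named lacZ, Neurog and Neurog:WRPW replicates 1 and 2. Plasmid uptake is mosaic in electroporated embryos, and the driver labels the whole lineage, so that the sorted lacZ cells are bipolar tail neurons (BTNs) mixed with epidermal cells of the same lineage. By the study's account, *Neurog* > *Neurog* turns the whole lineage into BTNs and *Neurog* > *Neurog:WRPW* abolishes BTN fate. The 3 conditions thus differ in their mixture of cells. The study also names leaky activity of the driver in other tissues as a possible source of false positives. In such bulk samples, fewer cells of a type and less RNA per cell cannot be told apart.

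Neurogenins are proneural transcription factors of the basic helix-loop-helix (bHLH) class. They bind DNA as dimers with a ubiquitous bHLH partner and switch on genes of neuronal differentiation, among them further transcription factors. A WRPW tail recruits the Groucho corepressor, which turns an activator into a repressor of the genes it binds. BTNs are neurons of the *Ciona* tail that arise at the border of the neural plate, migrate along the tail and extend processes both forward and backward. *Onecut* encodes a homeodomain factor with a cut domain, a class widely used in differentiating neurons, and *Insm* encodes a zinc finger factor that in vertebrates acts in neural progenitors leaving the epithelium. *MYT1L* encodes a zinc finger factor of neurons, known in mammals for holding down non-neuronal genes. *Bhlh-tun2* is matched in the study's tables to *NHLH1*, *NHLH2* and *TAL2*, which also encode bHLH factors.

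The bHLH stretches of *Neurog* and *Bhlh-tun2* are shown because these 2 genes are of the same class, and only near-identical copies would share reads. Codons 98 to 165 of the joined *Neurog* coding exons and codons 4 to 74 of the *Bhlh-tun2* probe template were aligned as protein, and capitals mark the codons that encode the same residue in both.
Neurog: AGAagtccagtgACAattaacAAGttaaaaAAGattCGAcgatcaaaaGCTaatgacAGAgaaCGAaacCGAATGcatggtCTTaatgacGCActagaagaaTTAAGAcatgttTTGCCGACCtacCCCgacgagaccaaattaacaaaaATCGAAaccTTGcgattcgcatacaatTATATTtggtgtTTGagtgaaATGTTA
Bhlh-tun2: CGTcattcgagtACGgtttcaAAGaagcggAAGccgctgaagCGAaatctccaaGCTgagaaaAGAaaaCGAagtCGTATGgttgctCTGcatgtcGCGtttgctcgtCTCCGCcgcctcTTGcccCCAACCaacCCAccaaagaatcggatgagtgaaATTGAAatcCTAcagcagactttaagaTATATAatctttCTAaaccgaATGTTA

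Of 68 aligned residues, 26 were identical (38.2%), with 3 columns of gaps. *Insm* is shown by its first zinc finger, codons 77 to 98 of the probe template, in which capitals mark the codons of the 2 cysteines and 2 histidines that hold the zinc.
Insm: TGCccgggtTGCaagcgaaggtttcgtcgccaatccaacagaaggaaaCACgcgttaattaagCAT

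The total was 10315548 to 24499397 counts per library, lowest in Neurog:WRPW replicate 2. That library also had the fewest gene models with a count (13009, against 14291 to 14497 in the others). By the study's methods it also came from the fewest sorted cells, and Neurog:WRPW replicate 1 from the most. The study names this gap as a possible reason for weaker statistical support, and so for fewer genes found, in the repressor condition. The BTN markers *Asic*, *GAD* and *alpha-Tubulin* had counts in all 6 libraries. Over all genes tested, the median LogFC (log2 fold change) was -0.03 in Neurog vs. lacZ, -0.02 in Neurog:WRPW vs. lacZ and -0.04 in Neurog vs. Neurog:WRPW.

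*Neurog* checks the labels, since 2 of the 3 plasmids encode it. It was at 90.1 and 134 CPM under lacZ in replicates 1 and 2, at 3934 and 3975 CPM under Neurog, and at 109 and 190.3 CPM under Neurog:WRPW. The Neurog libraries thus stood far above all others and differed little from each other, while the Neurog:WRPW and lacZ libraries overlapped. *Neurog* was 35.3-fold higher in Neurog vs. lacZ, a LogFC of 5.14 (standard error 0.41, unadjusted p = 1.13e-05, adjusted p = 0.139 by the quasi-likelihood test of edgeR and the Benjamini-Hochberg method). In Neurog:WRPW vs. lacZ its LogFC was 0.42 (standard error 0.35, adjusted p = 1 by the same edgeR test), and -0.04 without Neurog:WRPW replicate 2. The libraries labelled Neurog thus passed this check, and it gives none for the libraries labelled Neurog:WRPW, although their plasmid also encodes Neurog.

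Reads from the plasmids and from the chromosome are summed in this gene. Its model is 1751 bases long, the same as the 4 exons in the study's sequence of the gene. The driver sequence, which stands in all 4 kinds of plasmid used, holds the 316 bases before the start codon, 18% of the gene model. A transcript of the reporter or of lacZ could so add reads to *Neurog* in every library, and how many was not tested. *Neurog* had 41.3 and 40.4 counts per base of its model in the Neurog libraries and 0.926 to 1.74 where it was not raised.

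*Bhlh-tun2* had the largest LogFC of the other 4 genes in Neurog vs. lacZ. It was at 16 and 7.16 CPM under lacZ, 140.1 and 159.7 CPM under Neurog, and 4.12 and 0.445 CPM under Neurog:WRPW. All 3 groups were separate, with Neurog highest and Neurog:WRPW lowest. The lowest value rests on 4 counts in Neurog:WRPW replicate 2, for which an exact Poisson interval at 95% runs from 0.121 to 1.14 CPM and covers counting error only.

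*Onecut* was at 110.7 and 62.5 CPM under lacZ, 378.7 and 354.5 CPM under Neurog, and 37.4 and 16.8 CPM under Neurog:WRPW. Its groups had the same order without overlap, and its lowest library still held 151 counts. *Insm* followed the same order at a low level, with 5.5 and 3.12 CPM in lacZ, 20.9 and 23.9 CPM in Neurog, and 1.48 and 0.334 CPM in Neurog:WRPW. Its lowest library held 3 counts, an exact Poisson interval of 0.0688 to 0.975 CPM.

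The *MYT1L* match was at 85.1 and 95.5 CPM under lacZ, 219.6 and 243.2 CPM under Neurog, and 68.8 and 50.03 CPM under Neurog:WRPW. It kept the order of the other 3 genes, but its Neurog:WRPW libraries stayed nearest to lacZ, at 65.8% of the lacZ mean. The mean of the Neurog:WRPW libraries was 31.3% of the lacZ mean for *Onecut*, 21% for *Insm* and 19.7% for *Bhlh-tun2*.

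**Figure D1:**
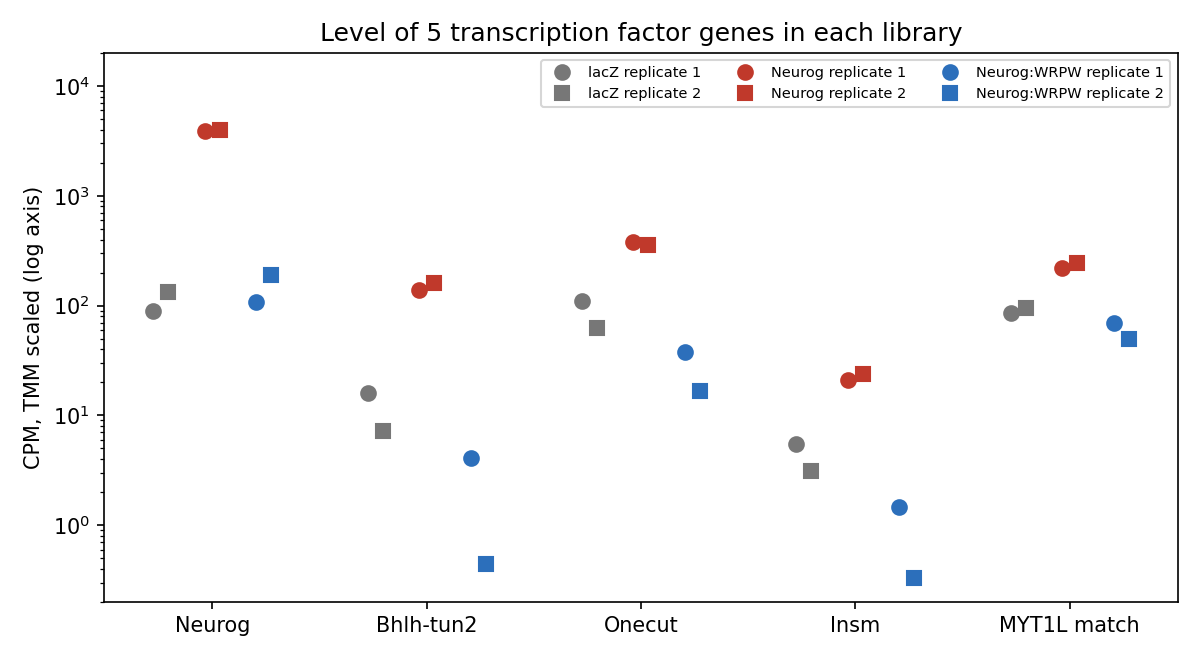
Level of each of the 5 genes in CPM scaled by the trimmed mean of M-values (TMM), on a log axis, with 1 point per library (circle, replicate 1, and square, replicate 2). The Neurog libraries lie above all others for every gene, and the Neurog:WRPW libraries lie below both lacZ libraries for every gene but *Neurog*, where they reach from 109 to 190.3 CPM.

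Per base of gene model, the genes can be compared with each other as TPM, which divides the counts by model length and scales them to the library. In the lacZ libraries *Neurog* led with 131 ± 25.9 TPM (SD, n = 2), followed by *Onecut* with 56.8 ± 26.6, the *MYT1L* match with 39.7 in both libraries, *Bhlh-tun2* with 34.4 ± 21 and *Insm* with 5.9 ± 2.75. *Onecut*, the *MYT1L* match and *Bhlh-tun2* overlapped there, between 19.6 and 75.6 TPM, and their order differed between the replicates. In the Neurog libraries the order was the same in both replicates, and *Bhlh-tun2* had moved to the second place. *Neurog* was then at 4976 ± 117 TPM, *Bhlh-tun2* at 464.1 ± 50.5, *Onecut* at 251.6 ± 7.66, the *MYT1L* match at 108.7 ± 9.62 and *Insm* at 32.2 ± 3.53. None of these neighbours overlapped.

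In the Neurog:WRPW libraries *Neurog* stood at 155 ± 42.9 TPM, the *MYT1L* match at 23.8 ± 7.92, *Onecut* at 16.1 ± 10.2, *Bhlh-tun2* at 6.32 ± 7.44 and *Insm* at 1.15 ± 1.1 (SD, n = 2). The *MYT1L* match was the highest of the 4 genes other than *Neurog* in both Neurog:WRPW libraries, as it was in lacZ replicate 2 but not in lacZ replicate 1. *Onecut* overlapped with the *MYT1L* match and with *Bhlh-tun2*, and *Bhlh-tun2* with *Insm*. Within each of the 2 libraries the order of the 5 genes was the same. In replicate 2 it rests on 4 counts for *Bhlh-tun2* and 3 counts for *Insm*.

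Neurog vs. lacZ asked which genes Neurog raises in this lineage. All 5 genes passed the study's thresholds for upregulation, a LogFC over 0.6 with an unadjusted p under 0.05, where 4.36% of all genes tested did. For *Neurog*, which the plasmid of that condition encodes, this was set by the design. *Bhlh-tun2* was 13-fold higher (LogFC 3.70, standard error 0.825), the rank of 28 from the top among 12253 genes. *Insm* was 5.21-fold higher (LogFC 2.38, standard error 0.628), *Onecut* 4.23-fold (LogFC 2.08, standard error 0.462) and the *MYT1L* match 2.56-fold (LogFC 1.36, standard error 0.258). The median LogFC of these 4 genes was 2.23, beside -0.03 over all genes tested. In each of the 5 genes both Neurog libraries lay above both lacZ libraries, as in 18.6% of all genes tested. All 5 stand in the study's own list of genes ordered by Neurog vs. lacZ, so their direction here is no independent result.

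No gene of the whole table had an adjusted p under 0.05 in Neurog vs. lacZ by the quasi-likelihood test of edgeR, with 771 genes at an unadjusted p under 0.05, 157 genes past the adjusted threshold by edgeR's exact test and 220 by DESeq2. With the replicate number as a block, a pairing that the sources do not state, the adjusted p of the quasi-likelihood test of edgeR was 0.00672 for *Neurog*, 0.0237 for *Onecut*, 0.0334 for *Bhlh-tun2*, 0.0451 for the *MYT1L* match and 0.0829 for *Insm*, where 1.37% of all genes passed 0.05 on the higher side. Without lacZ replicate 2 the LogFC of *Insm* was 2.03 and its p of 0.0541 by the edgeR fit missed the threshold. Without lacZ replicate 1 the LogFC of *Bhlh-tun2* was 4.42. With 2 libraries against 2, the smallest p of an exact permutation test is 0.333, so no single gene could pass such a test.

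**Figure D2:**
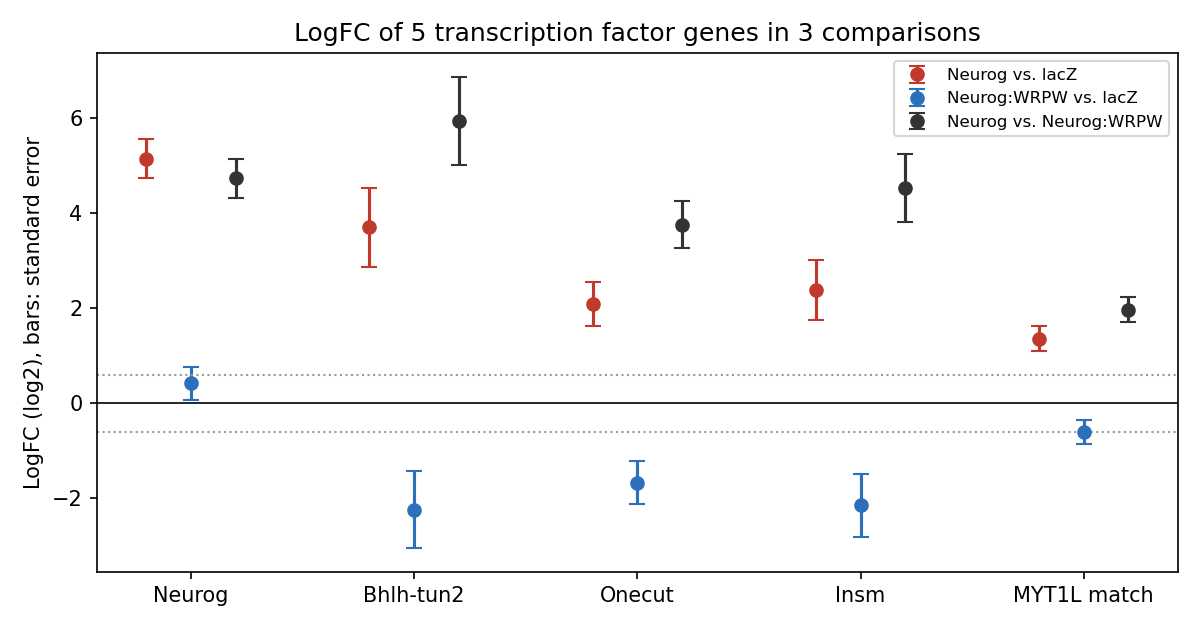
LogFC on the log2 scale with its standard error for the 5 genes in the 3 comparisons, from 1 edgeR fit of 2 libraries per group. Dotted lines mark LogFCs of 0.6 and -0.6. All 5 genes lie above the upper line in Neurog vs. lacZ, and *Bhlh-tun2*, *Insm* and *Onecut* lie below the lower line in Neurog:WRPW vs. lacZ.

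Neurog:WRPW vs. lacZ asked which genes fall when the targets of Neurog are repressed. *Bhlh-tun2*, *Insm* and *Onecut* passed the thresholds for downregulation (LogFC under -0.6 and unadjusted p under 0.05), 3 of the 5 genes, where 1.19% of all genes tested did. *Bhlh-tun2* was 4.7-fold lower (LogFC -2.23, standard error 0.815, unadjusted p = 0.032 by edgeR's fit across all genes). *Insm* was 4.41-fold lower (LogFC -2.14, standard error 0.662, unadjusted p = 0.0166 by that fit) and *Onecut* 3.18-fold lower (LogFC -1.67, standard error 0.458, unadjusted p = 0.00986 by that fit). The *MYT1L* match had a LogFC of -0.60 (standard error 0.255, unadjusted p = 0.0543 by that fit) and did not pass. Both Neurog:WRPW libraries lay below both lacZ libraries in 4 of the 5 genes, as in 13.7% of all genes tested.

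The adjusted p was 1 for all 5 genes by the quasi-likelihood test of edgeR, and no gene of the table passed 0.05, with or without the replicate block. In that comparison 191 genes had an unadjusted p under 0.05, and 2 genes passed the adjusted threshold by edgeR's exact test and 4 by DESeq2. Without lacZ replicate 1 none of the 5 genes passed the thresholds, and the LogFC was -1.19 for *Onecut*, -1.54 for *Bhlh-tun2* and -1.67 for *Insm*. Without Neurog:WRPW replicate 2, the library of lowest depth, the same 3 genes passed, with *Bhlh-tun2* at -1.49 and *Insm* at -1.54. Without Neurog:WRPW replicate 1 the LogFC was -4.68 for *Bhlh-tun2*, -3.66 for *Insm* and -2.37 for *Onecut*, and the *MYT1L* match passed at -0.85. Without Neurog replicate 2, *Bhlh-tun2* no longer passed, at -2.22. With the replicate block the *MYT1L* match passed, at -0.60 with a p of 0.0304 by edgeR's fit, and 3.55% of all genes tested were down.

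Both comparisons share the lacZ libraries. The genes up in Neurog vs. lacZ and down in Neurog:WRPW vs. lacZ were 58 of all genes tested (0.473%), and *Bhlh-tun2*, *Insm* and *Onecut* were among them. The study already names *Onecut* among its own genes of this kind from the same libraries. As the members were chosen with earlier results known, finding them here is no independent result. Both Neurog libraries above and both Neurog:WRPW libraries below the lacZ libraries were found in 4 of the 5 genes, and in 3.97% of all genes tested. *Neurog* was raised without being lowered, and the *MYT1L* match was raised but missed the threshold for downregulation.

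The direct comparison of Neurog vs. Neurog:WRPW does not use the lacZ levels, which enter the shared spread only. All 5 genes were higher in Neurog at the same thresholds, where 7.08% of all genes tested were, and the libraries of the 2 groups did not overlap, as in 20.8% of all genes. For *Neurog* this level includes reads of the plasmid. *Bhlh-tun2* was 61-fold higher (LogFC 5.93, standard error 0.932), rank 13 of 12253. *Neurog* was 26.4-fold higher (LogFC 4.72), *Insm* 23-fold (LogFC 4.52), *Onecut* 13.5-fold (LogFC 3.75) and the *MYT1L* match 3.89-fold (LogFC 1.96). The adjusted p by the quasi-likelihood test of edgeR was 0.0412 for *Neurog*, 1 of 5 genes of the table that passed (0.0408% of those tested), and 0.0796 to 0.0924 for the other 4.

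With the replicate block all 5 genes passed an adjusted p of 0.05 by the same edgeR test, from 0.00137 for *Neurog* to 0.00967 for *Insm*, where 3.25% of all genes passed on the higher side. No gene of the table, *Neurog* included, passed that threshold when any 1 of the 6 libraries was left out, while all 5 genes still passed the unadjusted thresholds. The LogFC of *Bhlh-tun2* was 8.37 without Neurog:WRPW replicate 1 and 5.18 without replicate 2. In the same fits that of *Insm* was 6.04 and 3.92, and that of *Onecut* 4.45 without Neurog:WRPW replicate 1.

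Under Neurog, the difference between the 2 libraries was not the same for these genes and for the BTN markers. Under lacZ and Neurog:WRPW it was alike for some of these genes. In the Neurog group all 5 genes were close between replicates, at ratios of replicate 1 to replicate 2 from 0.876 for *Insm* to 1.07 for *Onecut*. Of 7969 genes with a mean over 8 CPM, 29.3% had replicates that close or closer there. *GAD*, which makes the transmitter GABA, was 5.23-fold higher in Neurog replicate 1, the channel gene *Asic* 2.37-fold and *alpha-Tubulin* 1.76-fold.

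*GAD* was at 682.3 and 130.4 CPM in Neurog replicates 1 and 2, *Asic* at 450.5 and 189.9 CPM, and *alpha-Tubulin* at 9857 and 5600 CPM. *Neurog*, *Onecut*, *Bhlh-tun2*, *Insm* and the *MYT1L* match thus differed little between 2 libraries in which these 3 markers were apart. This does not extend to transcription factor genes in general, since those described further below were mixed in the Neurog group. KH.S563.4 was apart there, at 15.6 and 5.72 CPM in replicates 1 and 2, while KH.C9.872 was close, at 244.3 and 247.7 CPM. In the lacZ group replicate 1 was higher for *Bhlh-tun2* (2.24-fold), *Onecut* (1.77-fold) and *Insm* (1.77-fold), as for the 3 markers (1.63-fold to 2.97-fold). The *MYT1L* match was 1.12-fold higher in lacZ replicate 2. *Neurog* was 1.49-fold higher in lacZ replicate 2 and 1.75-fold higher in Neurog:WRPW replicate 2.

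In the Neurog:WRPW group *Bhlh-tun2* was 9.26-fold higher in replicate 1, *Insm* 4.43-fold, *Onecut* 2.23-fold and the *MYT1L* match 1.38-fold. *Bhlh-tun2* there was wider apart than nearly all genes, since 99.1% of the 7969 had replicates as close or closer. The marker *Asic* was 10.9-fold higher in the same library, with 14.6 CPM against 1.33 CPM. The 48 genes marked as seen in BTNs by *in situ* hybridization in the copy of the study's table used here, a list chosen on these libraries and holding *Bhlh-tun2*, summed to 1538 to 2626 CPM in lacZ, 6433 to 11800 CPM in Neurog and 738.3 to 1400 CPM in Neurog:WRPW. The higher value was that of replicate 1 in each group, and 6 of the 48 were at 0 counts in Neurog:WRPW replicate 2.

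The sum of the 13 genes marked there as seen in other tissues moved the same way. It was 247.6 to 274.6 CPM in lacZ, 635.3 to 710.9 CPM in Neurog and 118.2 to 143.5 CPM in Neurog:WRPW. Singly, 7 of the 13 were down, 1 was up and 5 had no call in Neurog:WRPW vs. lacZ, beside 1.19% of all genes down and 0.318% up. These 13 were likewise chosen by the study after its analysis of these libraries, so they are no independent control. The part of cell makeup, depth or cell number in the levels of the 5 genes was not tested.

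**Figure D3:**
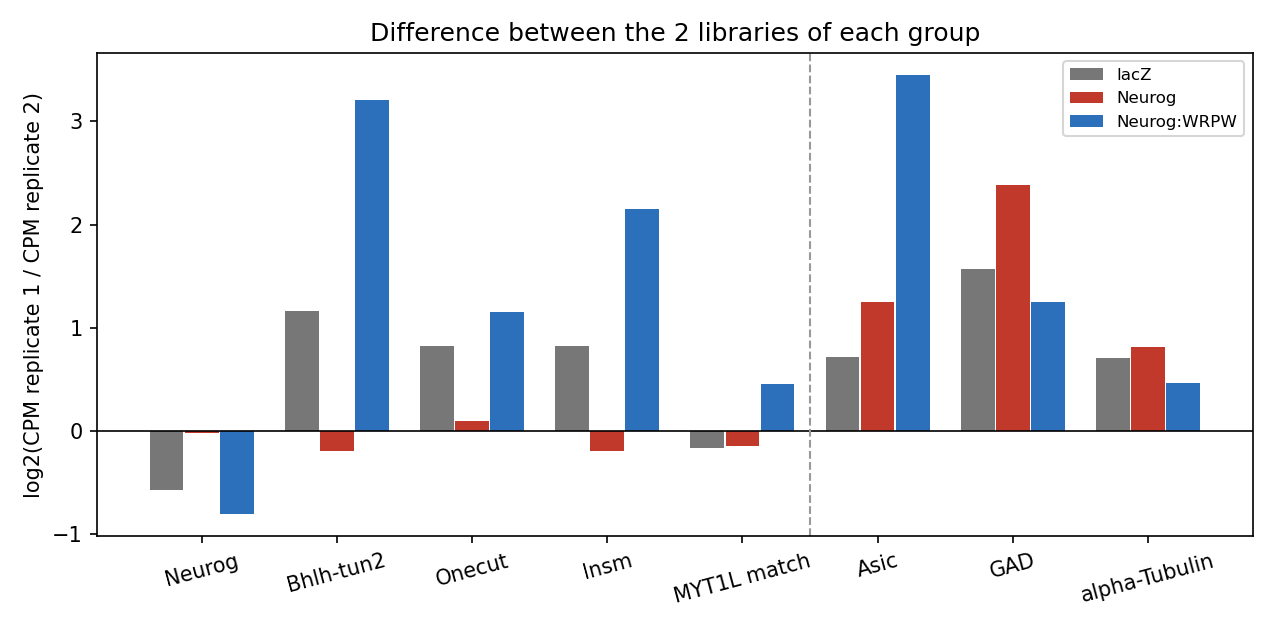
Difference between the 2 libraries of each group, as log2 of the CPM in replicate 1 over that in replicate 2, for the 5 genes (left of the dashed line) and 3 BTN markers (right). In the Neurog group the 5 genes lie between -0.191 and 0.095, while *GAD* reaches 2.387 and *Asic* 1.246.

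Over the 6 libraries, *Onecut*, *Bhlh-tun2* and *Insm* followed nearly the same pattern, with Pearson's r of log2 CPM (prior count 2) of 0.994 to 0.997 between them. The *MYT1L* match was at 0.96 to 0.967 with these 3, and *Neurog* at 0.76 to 0.896 with the other 4 genes. These values describe 3 groups of 2 libraries and share the same libraries and scaling. Those of *Neurog* include reads of the plasmids, for which the study left this gene out of a comparison with other data. Of 7968 other genes over 8 CPM, 190 to 400 (2.38% to 5.02%) had an r over 0.9 with each of the 5 genes, so that such a value is not rare here.

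The genes nearest in pattern were partly shared among *Onecut*, *Bhlh-tun2* and *Insm*, but not with *Neurog* or the *MYT1L* match. As the level of *Neurog* includes plasmid reads, its nearest genes are not shown to follow the chromosomal gene. For *Neurog* they were *Dhcr7* (KH.C2.506, r = 0.9916), matched to a reductase of sterol synthesis, *Sord* (KH.L105.1, r = 0.9906) and KH.C7.46 (r = 0.9866). For *Onecut* they were *Ncs* (KH.C1.1067) and *Basigin* (KH.C5.79), both at 0.9963, and *Insm* at 0.9955. *Ncs* belongs to the neuronal calcium sensors and *Basigin* to the immunoglobulin superfamily of membrane proteins.

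For *Bhlh-tun2* the nearest were an opsin match (KH.L171.13, r = 0.9973), the guidance gene *Sema6* (KH.C4.719, r = 0.9968) and *Insm* (r = 0.9967). For *Insm* they were *Bhlh-tun2*, *Basigin* (r = 0.9962) and a match to EPH receptors (KH.C1.404, r = 0.9962). *Insm* and *Bhlh-tun2* were thus each among the 3 nearest of the other. For the *MYT1L* match they were KH.C2.124, matched to acyltransferases (r = 0.9923), KH.C8.97 (r = 0.992) and KH.C12.199 (r = 0.9909).

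A list of 26 other transcription factor genes was set beside the 5. Of these, 24 came from a copy of the study's gene table that is ordered by its own Neurog vs. lacZ values, so their direction in that comparison was fixed by the choice. The other 2 comparisons share the Neurog or the lacZ libraries with that choice, so the counts given for them describe the list and are no independent result about it. In Neurog vs. lacZ, 5 of the 26 were up and none was down at the thresholds, beside 4.36% of all genes up, with a median LogFC of 1.04. The gene with the largest LogFC was KH.C12.152, matched to *PAX6* and *RAX*, homeobox genes of eye and brain in vertebrates. It was at 7.83 and 6.28 CPM in lacZ, 122.5 and 108.3 CPM in Neurog, and 6.23 and 0 CPM in Neurog:WRPW.

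A count of 0 in that last library allows up to 0.334 CPM (3 counts). The LogFC of KH.C12.152 was 4.03 (standard error 1.19) in Neurog vs. lacZ, where it passed, and -1.07 (standard error 1.1) in Neurog:WRPW vs. lacZ, where it did not. The latter was -0.18 without Neurog:WRPW replicate 2, while without replicate 1 only the library at 0 counts remained and the gene passed. It no longer passed in the former without lacZ replicate 1 (LogFC 4.22) or lacZ replicate 2 (LogFC 3.88). The *IRX* match KH.C11.608, another homeobox gene, was also up, with a LogFC of 2.12, as was KH.C1.1016, a nuclear receptor match, with 1.09. KH.C11.608 did not pass without lacZ replicate 2 (LogFC 1.57) or Neurog replicate 1 (LogFC 1.95), nor KH.C1.1016 without lacZ replicate 2 (LogFC 0.84) or Neurog replicate 2 (LogFC 1.03). The LogFC of KH.C11.608 was 2.99 without lacZ replicate 1.

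In Neurog:WRPW vs. lacZ, 4 of the 26 genes were down and none up, beside 1.19% of all genes down, with a median LogFC of -0.55 over the list. All 4 were homeobox genes, of 14 on the list. Named here are KH.C4.500, matched to *PROX1* (LogFC -3.10, standard error 1.14), KH.S563.4, matched to *HMX1* to *HMX3* (LogFC -2.77, standard error 0.917), and KH.L128.12, matched to *HOXA3* and *MNX1* (LogFC -1.93, standard error 0.526).

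The *PROX1* match was at 9.06 and 11.2 CPM in lacZ, 14.8 and 10.7 CPM in Neurog and 2.17 and 0 CPM in Neurog:WRPW. Its Neurog and lacZ libraries overlapped, unlike those of *Bhlh-tun2*, *Insm* and *Onecut*, and its LogFC in Neurog vs. lacZ was 0.33 (standard error 1.02). The *HMX* match was at 3.89 and 1.8 CPM in lacZ, 15.6 and 5.72 CPM in Neurog and 0.634 and 0.111 CPM in Neurog:WRPW. Its Neurog:WRPW values rest on 12 counts and 1 count. Its groups did not overlap, though its LogFC of 1.91 (standard error 0.821) did not pass in Neurog vs. lacZ. It passed there with the replicate block (LogFC 1.83), without Neurog replicate 2 (LogFC 2.46) and without either Neurog:WRPW library (LogFC 1.91).

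Each of these 3 falls lost its call without at least 1 library. The *HMX* match (KH.S563.4) did so without lacZ replicate 1 (LogFC -2.10) or Neurog:WRPW replicate 2 (LogFC -2.15), and stood at -4.58 without Neurog:WRPW replicate 1. KH.L128.12 did so without lacZ replicate 2 (LogFC -1.48). KH.C4.500 kept its call only where a Neurog:WRPW library was left out, with a LogFC of -2.23 without replicate 2 and only 0 counts in the group without replicate 1.

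None of these 26 genes passed an adjusted p of 0.05 in any of the 3 comparisons by the quasi-likelihood test of edgeR. With the replicate block 9 of them did so in Neurog vs. Neurog:WRPW, among them the *HMX* match (adjusted p = 0.00887), the *HOXA3* match (adjusted p = 0.0165) and the *PAX6* match (adjusted p = 0.0337, all by edgeR), and none did in the other 2 comparisons. The number down in Neurog:WRPW vs. lacZ was 1 without lacZ replicate 2, 2 without lacZ replicate 1 or Neurog:WRPW replicate 2, 10 without Neurog:WRPW replicate 1, and 7 with the replicate block. The number up in Neurog vs. lacZ was 2 without lacZ replicate 2, 3 without lacZ replicate 1 or Neurog replicate 1, 10 without either Neurog:WRPW library, and 14 with the block.

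Of the other bHLH genes listed, KH.C9.872, matched to *ATOH1* and *NEUROD4*, overlapped between lacZ and Neurog:WRPW, as *Neurog* did. It was at 92.8 and 134.4 CPM in lacZ, 244.3 and 247.7 CPM in Neurog, and 78.4 and 140.9 CPM in Neurog:WRPW. It was up in Neurog vs. lacZ (LogFC 1.114, standard error 0.353) and at -0.05 (standard error 0.35) when Neurog:WRPW was set against lacZ. Its rise did not pass without lacZ replicate 1 (LogFC 0.90) or Neurog replicate 2. KH.C5.554, another match to *ATOH1*, and KH.C1.1116, a *HAND* match, stood at LogFCs of 1.07 and 1.00 there, with standard errors of 1.43 and 0.681, and passed in none of the 3 comparisons. With 1 library left out, KH.C5.554 ranged from -1.39 without Neurog replicate 1 to 2.08 without lacZ replicate 1, so its direction rests on single libraries. KH.C1.1116 ranged from 0.49 without lacZ replicate 2 to 1.82 without lacZ replicate 1, and passed with the replicate block (LogFC 1.08).

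In Neurog vs. Neurog:WRPW, 14 of the 26 genes were higher and none lower, beside 7.08% of all genes higher, with a median LogFC of 1.72. The 14 held 9 of the 14 homeobox genes, 1 of 3 bHLH genes and 2 of 4 zinc finger genes. Among those named, the *PAX6* match (KH.C12.152) had a LogFC of 5.11 (standard error 1.26), the *DRGX* match (KH.C4.754) 4.80 (standard error 1.3) and the *HMX* match (KH.S563.4) 4.67 (standard error 0.965), which differ by less than these errors. The *LHX* match KH.S215.4 had 2.34 (standard error 0.674), the *IRX* match 2.56 (standard error 0.651) and the nuclear receptor match 1.33 (standard error 0.362). Without Neurog:WRPW replicate 2 the LogFC was 4.21 for the *PAX6* match, 4.02 for the *DRGX* match, 4.06 for the *HMX* match and 1.64 for the *LHX* match. Without Neurog:WRPW replicate 1 it was 6.49 for the *HMX* match, 3.86 for the *LHX* match and 3.31 for the *IRX* match (KH.C11.608), while only 0 counts remained in the group for the *PAX6* and *DRGX* matches. The *HMX* match was at 3.84 without Neurog replicate 1. All 6 passed in each of these fits.

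KH.L24.10, matched to *EBF1* to *EBF3*, is named for its role and was chosen after its values were seen. EBF factors act in neuronal differentiation downstream of proneural bHLH factors in vertebrates. It was at 44 and 31.6 CPM in lacZ, 156.4 and 224.5 CPM in Neurog, and 21.2 and 0.334 CPM in Neurog:WRPW. Its lowest value rests on 3 counts. Its groups had the order of *Onecut* without overlap, yet its LogFC of 2.33 (standard error 1.23, unadjusted p = 0.105 by edgeR's fit across all genes) did not pass in Neurog vs. lacZ, and 1 library of Neurog:WRPW stood far below the other. It passed there at the same LogFC without either Neurog:WRPW library, and with the replicate block (LogFC 2.49). In Neurog vs. Neurog:WRPW it passed with a LogFC of 4.11 (standard error 1.34), which was 3.17 without replicate 2 of Neurog:WRPW and 9.13 without its replicate 1. With Neurog replicate 2 left out it was 3.82 and did not pass.

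**Figure D4:**
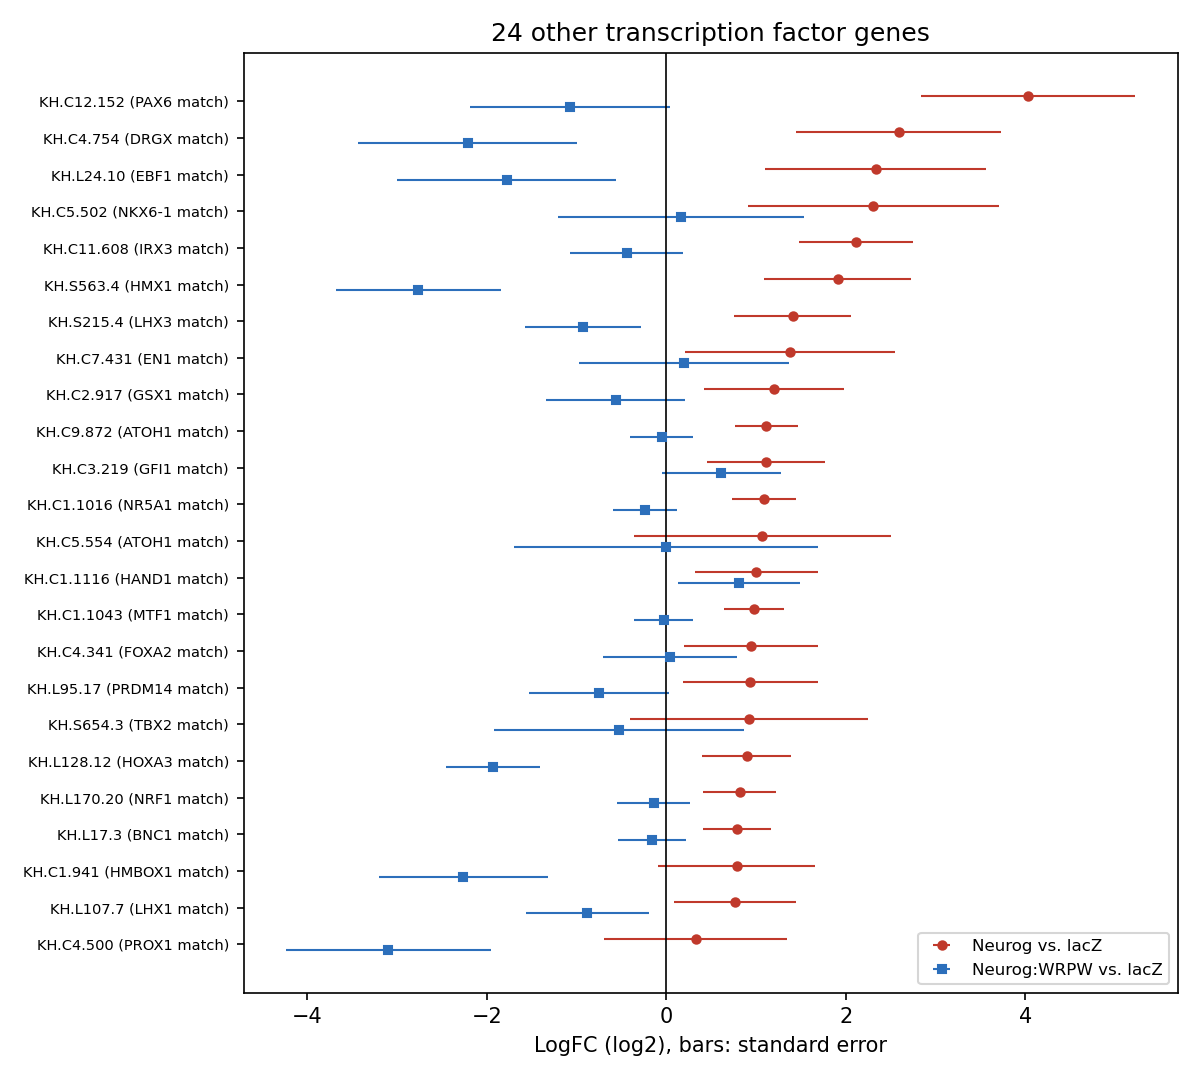
LogFC on the log2 scale with its standard error for 24 of the 26 other transcription factor genes, ordered by Neurog vs. lacZ (red circles) and with Neurog:WRPW vs. lacZ (blue squares), each labelled with its first human match. LogFCs run from 0.33 to 4.03 in Neurog vs. lacZ, a side set by how the list was made, and from -3.10 to 0.81 in Neurog:WRPW vs. lacZ.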

How the data were processed

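The authors deposited raw counts per gene model, 1 column per library, after mapping with STAR 2.5.2b and counting over KyotoHoya (KH) exons with featureCounts, duplicates ignored. Ignoring duplicates by position lowers abundant transcripts most, and its part in the level of *Neurog* was not tested. Neither strand setting nor assembly version is given in the sources used here. Overlapping genes can therefore share reads, and coordinates are left out.

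For genes with more than 1 CPM in 2 or more libraries, TMM scaling and 1 model of the 3 groups in edgeR 4.0.16 (R 4.3.3) were used, with two-sided quasi-likelihood tests and Benjamini-Hochberg adjustment over 12253 genes. The fit was checked on simulated counts. Over the 3 comparisons, 52% to 59% of simulated 2-fold changes passed the unadjusted thresholds and 1% to 2% the adjusted one. Of 8-fold changes, 98% to 99% and 73% to 82% did. Genes without a call can therefore still differ. CPM and TPM were computed from the counts and model lengths. Replicates are 2 independent biological samples per condition by the study's methods. Sequences came from the study's supplementary text and probe table and were aligned with Biopython 1.88.

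Genes named were the 5 members, and of 26 listed transcription factors those down in Neurog:WRPW, the 8 with the smallest p in Neurog vs. Neurog:WRPW, and every bHLH gene. Of the genes this rule names, 1 is not reported here, and 2 of the 26 are left out of the plot. For each member, the 3 genes nearest in pattern and 3 BTN markers were added. Members and lists were chosen with earlier results of these data known. Alternatives were the replicate block, size factors of DESeq2 1.42.0, other filters and tests, only the groups compared, and leaving out each library. Leaving out a library was added for the counts of members and of the 26 genes after the data were seen.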

Additional observations from a re-analysis of the deposited data

How the results depend on the processing

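Of 105 values of the 5 genes under settings other than leaving out a library, 102 kept their direction and call. With only the 2 groups compared, the falls in Neurog:WRPW of *Bhlh-tun2* (LogFC -2.27) and *Insm* (LogFC -2.17) no longer passed, and with the replicate block that of the *MYT1L* match did (LogFC -0.605). Of 90 values with 1 library left out, 83 kept both. The 90 include fits without a library of the group not compared, in which the LogFC could hardly move. *Neurog* reversed in Neurog:WRPW vs. lacZ, at -0.0394 without Neurog:WRPW replicate 2, within a range of -0.0394 to 0.764. The falls ranged from -2.37 to -1.19 for *Onecut*, -4.68 to -1.49 for *Bhlh-tun2*, -3.66 to -1.54 for *Insm* and -0.852 to -0.392 for the *MYT1L* match, and the rise of *Insm* in Neurog vs. lacZ from 2.03 to 2.87. The cause was not tested.

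Counts over all genes moved more. In Neurog vs. lacZ, 534 genes were up (813 with the replicate block, 231 to 655 with 1 library left out) and 224 down (596 with the block, 96 to 333). None passed an adjusted p of 0.05, against 179 with the block, 157 by edgeR's exact test and 220 by DESeq2. In Neurog:WRPW vs. lacZ, 39 genes were up (142 with the block, 32 to 145) and 146 down (435 with the block, 79 to 958), and 2 and 4 passed the adjusted threshold by the exact test and DESeq2. In Neurog vs. Neurog:WRPW, 868 genes were higher (532 to 1466) and 428 lower (897 with the block, 284 with only the 2 groups). At an adjusted p of 0.05, 5 genes passed, against 461 with the block, 31 without the filter, 394 by the exact test, 514 by DESeq2, and 0 with only the 2 groups or with any library left out.

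Same-numbered libraries deviated together, with correlations over 7969 genes of 0.565 (lacZ with Neurog), 0.611 (lacZ with Neurog:WRPW) and 0.537 (the remaining pair of groups), but no source says that a number marks a batch. Low counts limit *Bhlh-tun2* and *Insm* in Neurog:WRPW replicate 2, at 4 and 3 counts, and the cause of these low counts was not tested. A lone library was assumed to vary like the other groups.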
